A study of Mus musculus with 24 samples.

Results

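Integrin subunit genes were followed in activated mouse T cells, 5 of them for alpha chains (Itgae, Itga4, Itgal, Itgav, Itga6) and 4 for beta chains (Itgb1, Itgb2, Itgb3, Itgb7). They were named by symbol as a list of subunit genes, with earlier results of these data known, and are 9 of the 55401 genes counted. Each was found once in the count table, and all 9 passed the filter on low counts in every fit.

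Poly(A) RNA was sequenced from CD4+ and CD8+ T cells that had been sorted from spleen and then stimulated in culture for 2 days with antibodies to CD3 and CD28. All mice were C57BL/6 and 12 weeks old. The study asks what Pou2af1, a transcriptional coactivator best known from B cells, does to the transcriptome of these cells. Controls, called wild type here, carried 2 floxed Pou2af1 alleles and no Cre by their genotype label (CD4.Cre-, Pou2af1 fl/fl), although their titles write +/+. Heterozygotes carried Cre and 1 floxed allele (CD4.Cre+, Pou2af1 fl/+), and knockouts carried Cre and 2 floxed alleles (CD4.Cre+, Pou2af1 fl/fl). Cre under the CD4 promoter acts from the stage at which thymocytes carry both CD4 and CD8, so it reaches both lineages. Because no control animal has Cre, an effect of Cre and an effect of Pou2af1 loss cannot be told apart where the controls are 1 side of a comparison. With 4 libraries per group, the 3 genotypes in 2 lineages gave 24 libraries.

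Integrins are heterodimers of 1 alpha and 1 beta chain that hold a cell to its neighbours and to the matrix. A beta chain can pair with several alpha chains, so the supply of each chain helps set which receptors form. The alpha E chain (Itgae, CD103) pairs with beta 7 and binds E-cadherin on epithelium, and is a hallmark of CD8 T cells resident in tissue. The alpha 4 chain (Itga4) pairs with beta 7 for the gut addressin MAdCAM-1 or with beta 1 for VCAM-1. The alpha L chain (Itgal) and beta 2 (Itgb2) form LFA-1, which binds ICAM-1 at the immune synapse. The alpha 6 chain (Itga6) pairs with beta 1 and binds laminin, and alpha V (Itgav) pairs with beta 1, beta 3 and other beta chains as a receptor for vitronectin, osteopontin and latent TGF-beta.

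Promoter sequences from RefSeq (GRCm38.p6) matched 4 of the 9 genes, Itga4, Itgav, Itgb1 and Itgb7. The 250 bases before the start of Itga4 (chr2:79255176-79255425, plus strand) and of Itgb7 (chr15:102231936-102232185, minus strand) are shown, counted from the RefSeq starts. That start of Itgb7 lies within the GENCODE gene given further on, whose start is at 102231944, so a few bases of the window fall within that gene. These promoters were chosen because the genes encode the chains of alpha 4 beta 7 and were both called higher in CD8 cells of heterozygotes and knockouts. Capitals mark exact matches, searched on both strands. The letters searched were TGTGGT for the core motif of RUNX factors, which are known regulators of T cell lineage genes. For the GC box, a common element of promoters, they were GGGCGG.
Itga4: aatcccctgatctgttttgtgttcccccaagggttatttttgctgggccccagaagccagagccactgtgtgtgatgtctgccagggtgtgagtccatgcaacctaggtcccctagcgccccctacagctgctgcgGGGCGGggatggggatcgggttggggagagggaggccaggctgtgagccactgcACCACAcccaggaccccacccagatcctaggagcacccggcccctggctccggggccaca
Itgb7: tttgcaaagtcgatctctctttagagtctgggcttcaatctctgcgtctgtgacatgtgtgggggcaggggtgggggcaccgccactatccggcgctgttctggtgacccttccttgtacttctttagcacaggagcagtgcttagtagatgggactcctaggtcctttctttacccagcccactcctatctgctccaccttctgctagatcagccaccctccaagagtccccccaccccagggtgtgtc
In the Itga4 window the RUNX match lies on the other strand, 60 bases from the 3′ end of the window, and the GC box lies on the same strand. The matches do not overlap. The Itgb7 window holds neither motif, and neither does that of Itgav, while that of Itgb1 holds 1 GC box. The octamer ATGCAAAT, the motif of the factors that POU2AF1 binds, is in none of the 4 windows. Over all 32851 promoter windows of 250 bases, 1.6% hold the octamer, 14% the RUNX motif and 32.7% the GC box. A match describes letters in a window and not a bound site.

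Depth ran from 11944120 to 21760793 gene counts per library. Levels are given as CPM, a gene's counts relative to the library total after TMM scaling. Only RNA was measured, so levels of the protein chains and of the receptors they form are not known here. Pou2af1 followed its labels, at 38.4 ± 10.9, 20.2 ± 4.28 and 2.19 ± 1.11 CPM (SD, n = 4 each) in CD4 wild type, heterozygotes and knockouts. In CD8 cells it stood at 27.7 ± 6.18, 15.5 ± 1.40 and 1.71 ± 0.75 CPM (SD, n = 4 each). The cell labels also held, since Cd8a stood at 0.67 CPM or less in all 12 CD4 libraries and Cd4 at 1.74 CPM or less in all 12 CD8 libraries. Sex read from Xist and the Y-linked Ddx3y was 1 female to 3 male in each wild-type and each knockout group, and 2 to 2 in the heterozygotes.

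Compared per length, transcripts of 3 of the 9 chains stood far above the others. CPM per kilobase of merged exon (RPKM) averaged 89.1 ± 9.76 for Itgb1, 83.4 ± 9.72 for Itgb2 and 64.7 ± 8.46 for Itgal (SD over the 24 libraries). Those are the beta 1 chain and both chains of LFA-1. The middle of the order was Itgb7 at 20.8 ± 6.08, Itga6 at 17.5 ± 1.97, Itga4 at 12.8 ± 3.97 and Itgav at 10.3 ± 1.77 RPKM (SD over the 24 libraries). Itgb3 stood at 4.97 ± 2.41 RPKM and Itgae last at 0.993 ± 1.21 RPKM, and these were also the genes with the widest spread relative to their mean. Merged exons count every annotated exon of a gene, used or not, so orders and ratios per length between genes depend on that choice.

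**Figure D1:**
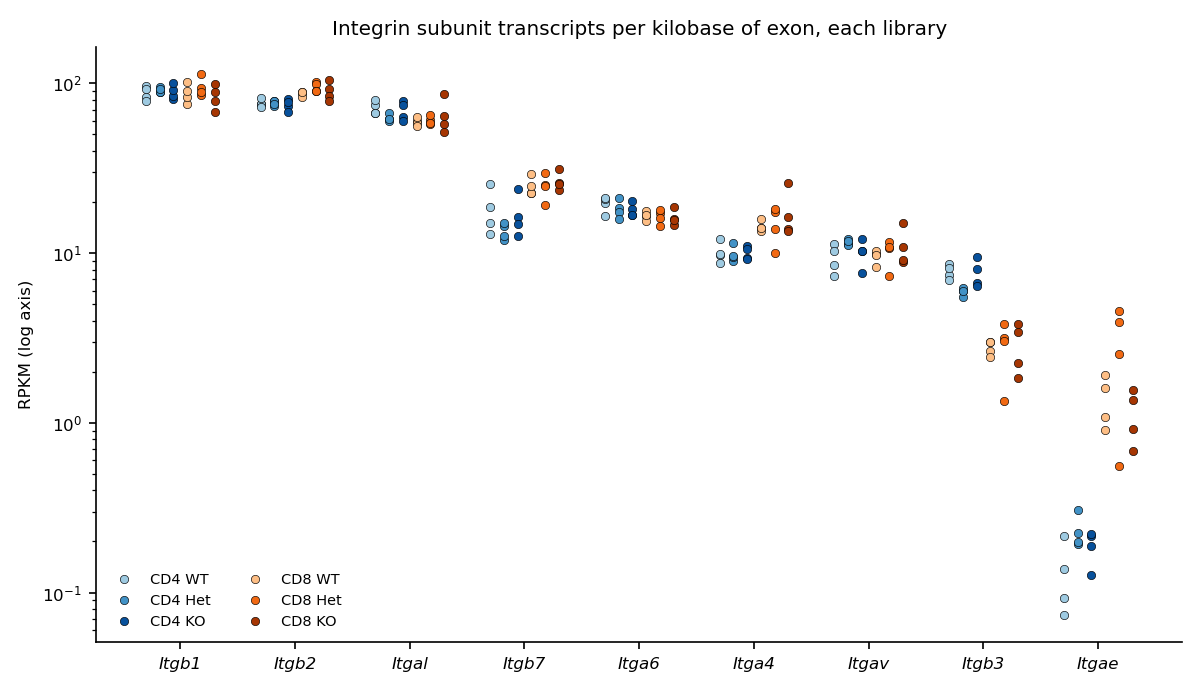
RPKM (log axis) of the 9 integrin subunit genes in each of the 24 libraries, with 1 point per library, coloured by group, and genes ordered by their mean over all libraries. Itgb1, Itgb2 and Itgal form the upper band in every group, Itgb3 lies lower in the CD8 groups, and Itgae lies lowest in the CD4 groups.

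The order of levels differed between the lineages at its middle, and at its foot the levels differed but hardly the order. In CD4 wild type it ran Itgb1, Itgb2, Itgal, Itga6, Itgb7, Itga4, Itgav, Itgb3 and Itgae. Steps whose libraries did not overlap there came after Itgal, after Itgb7 and before Itgae, and all other neighbours overlapped. In CD8 wild type Itgb7 (24.8 ± 3.20 RPKM, SD, n = 4) stood above Itga6 (16.6 ± 0.94 RPKM, SD, n = 4) with no overlap, where in CD4 wild type they stood at 18.0 ± 5.46 and 19.6 ± 2.06 RPKM and overlapped. Itgb3 and Itgae came last in that order in 5 of the 6 groups. Itgae stood at 0.13 ± 0.063 RPKM in CD4 wild type and 1.38 ± 0.47 RPKM in CD8 wild type (SD, n = 4 each). In CD8 heterozygotes, the exception, Itgae and Itgb3 overlapped, at 2.90 ± 1.77 and 2.85 ± 1.06 RPKM (SD, n = 4 each). CD8 knockouts had Itgb2 ahead of Itgb1, at 89.99 ± 11.4 and 83.5 ± 13.5 RPKM, with overlapping libraries.

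The lineage comparison asks how the transcripts of integrin chains differ between activated CD8 and CD4 cells of 1 genotype. Among wild types Itgae, Itga4 and Itgb2 were higher in CD8 cells and Itgb3 was lower. In heterozygotes and in knockouts the same 4 genes were called in the same directions, and Itgb7 was called as well, higher in CD8 cells. Calls are at a Benjamini-Hochberg adjusted p under 0.05 over all genes in edgeR's quasi-likelihood test. That made 4 of 9 called in wild type (3 higher, 1 lower), where 31.2% of the 13288 genes tested were called, 14.7% higher and 16.6% lower. It made 5 of 9 in heterozygotes (4 higher, 1 lower), where 35% of genes were called, 17.1% higher and 17.9% lower. In knockouts it made 5 of 9 (4 higher, 1 lower), where 24.1% were called, 11% higher and 13% lower. With backgrounds this high a call was common among all genes, so the counts are read together with the values of each gene. The median log2 change of the 9 was 0.03, 0.06 and 0.13 in wild type, heterozygotes and knockouts, beside -0.02, 0.01 and -0.00247 over all genes. DESeq2 gave the same counts of members, 4, 5 and 5.

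**Figure D2:**
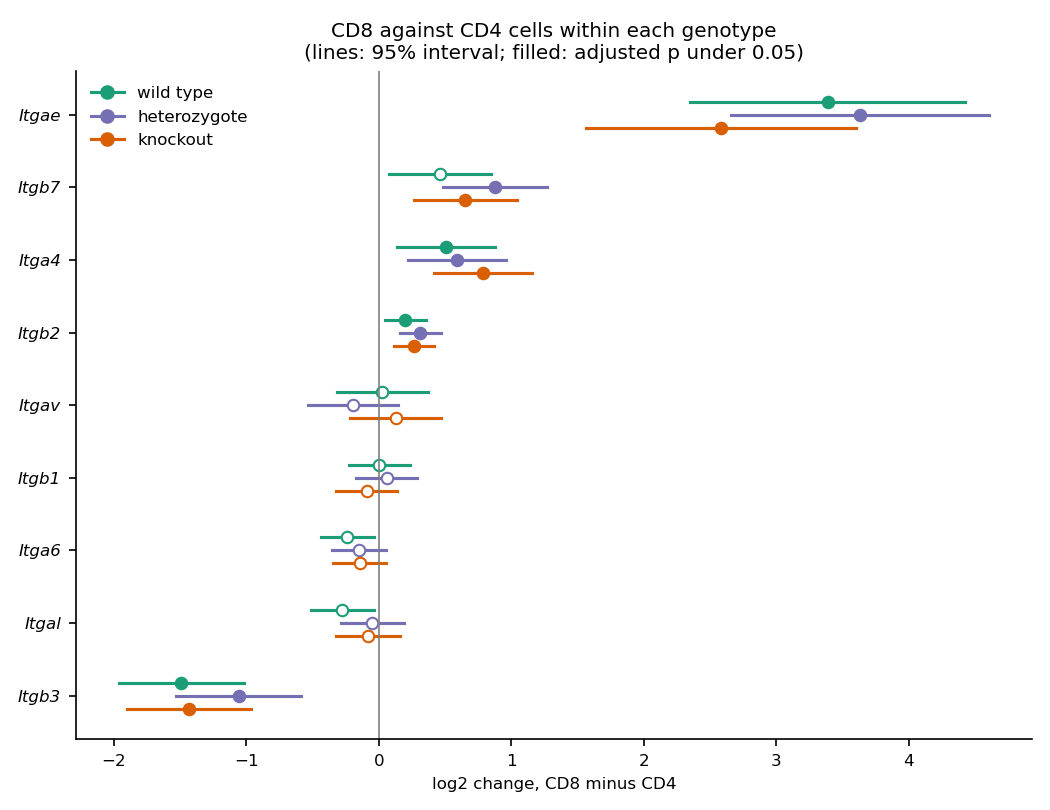
Log2 change from CD4 to CD8 cells for each integrin subunit gene, with 1 point per genotype, 95% intervals from edgeR's quasi-likelihood fit as lines, and filled points where the adjusted p was under 0.05. Itgae lies between 2.58 and 3.63 and Itgb3 between -1.49 and -1.06, while Itgav, Itgb1, Itga6 and Itgal have open points in all 3 genotypes.

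Itgae (ENSMUSG00000005947.11, GRCm38 chromosome 11, 73090583 to 73147446, plus strand) showed the largest lineage difference of the 9. In the CD4 wild-type libraries it stood at 0.336, 0.986, 0.427 and 0.632 CPM, which is 5 to 14 counts. In the CD8 wild-type libraries it stood at 4.98, 7.36, 8.80 and 4.13 CPM, or 60 to 138 counts. Every CD8 library lay above every CD4 library, and the CD4 counts are close to the floor of 3 counts per library (0.136 to 0.252 CPM). CD4 heterozygotes held 1.03, 1.40, 0.887 and 0.913 CPM, against 20.9, 17.9, 2.55 and 11.7 CPM in CD8 heterozygotes. CD4 knockouts held 0.866, 0.986, 0.582 and 1.01 CPM, against 4.22, 3.13, 7.15 and 6.21 CPM in CD8 knockouts. In these genotypes too the groups did not overlap, and CD8 heterozygous library 3 stood far below the other heterozygous CD8 libraries.

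The log2 change of Itgae from CD4 to CD8 was 3.39 in wild type (SE 0.50, edgeR adjusted p = 2.24e-05), a 10.5-fold difference. It was 3.63 in heterozygotes (SE 0.47, edgeR adjusted p = 3.32e-06) and 2.58 in knockouts (SE 0.49, edgeR adjusted p = 0.000444). Those are differences of 12.4-fold and 5.98-fold. It was called in 17 of 17 alternatives in each genotype. Since the RNA is from bulk samples, more cells with the transcript and more transcript per cell cannot be told apart, here or for any later gene. Itgae is also made by dendritic cells, by regulatory T cells and by some NK cells. Summed over 5 dendritic cell markers, wild-type libraries held 5.24 to 8.81 CPM in CD4 and 4.34 to 7.70 CPM in CD8. The 6 regulatory T cell markers summed to 1843 to 2083 CPM in CD4 and 1398 to 1828 CPM in CD8 wild type. Foxp3, which defines those cells, was a small part of that sum. It ranged from 0.874 to 5.34 CPM in CD4 wild type and from 0.377 to 2.93 CPM in CD8 wild type. Summed over 4 NK cell markers, CD4 wild-type libraries held 0.142 to 0.775 CPM and CD8 wild-type libraries 3.65 to 4.78 CPM. That NK sum was nearly all Klre1, which held 1 to 4 counts in CD4 and 46 to 74 counts in CD8 wild-type libraries. Ncr1, which defines NK cells, was at 0 counts in all 4 CD8 wild-type libraries, and Klrb1c held at most 1. Klre1 moves with Itgae between the lineages, and its part in the result was not tested.

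Itgb7 (ENSMUSG00000001281.10, chromosome 15, 102215995 to 102231944, minus strand) encodes the partner that alpha E requires and alpha 4 shares. CD4 wild-type libraries held 35.9, 41.8, 70.4 and 51.8 CPM, and CD8 wild-type libraries 62.5, 62.2, 69.0 and 81.1 CPM. The third CD4 library reaches into the CD8 range, and the wild-type change of 0.46 (SE 0.19) did not pass (edgeR adjusted p = 0.0646). Without that library it was 0.67 and passed (edgeR adjusted p = 0.00726). With a block for each genotype and replicate number it was 0.49 and passed (edgeR adjusted p = 0.0126). In heterozygotes Itgb7 rose from 33.0, 39.8, 34.7 and 41.6 CPM in CD4 to 53.3, 69.4, 82.2 and 68.9 CPM in CD8. These groups did not overlap, and the change was 0.88 (SE 0.19, edgeR adjusted p = 0.00102). Knockouts held 34.9, 45.3, 66.1 and 41.1 CPM in CD4 and 65.1, 86.5, 72.0 and 71.0 CPM in CD8, a change of 0.65 (SE 0.19, edgeR adjusted p = 0.0137). There the third CD4 library again overlapped the CD8 range. Without CD4 knockout library 1 the change was 0.53 and did not pass (edgeR adjusted p = 0.057).

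The alpha 4 gene Itga4 (ENSMUSG00000027009.18, chromosome 2, 79255426 to 79333123, plus strand), whose promoter is shown above, was higher in CD8 cells of each genotype. It stood at 136, 138, 169 and 122 CPM in CD4 wild type and 196, 188, 220.5 and 197 CPM in CD8 wild type. The groups did not overlap, and the change was 0.50 (SE 0.18, edgeR adjusted p = 0.0353), or 1.42-fold. In heterozygotes it stood at 125, 132, 135 and 160.1 CPM in CD4 and 246, 254, 192 and 139 CPM in CD8, with the fourth CD8 library inside the CD4 range. In knockouts the 4 CD4 libraries lay between 129.8 and 155 CPM, and the CD8 libraries at 227, 362, 193 and 189 CPM did not overlap them. The changes were 0.59 (SE 0.18, edgeR adjusted p = 0.0133) in heterozygotes and 0.79 (SE 0.18, edgeR adjusted p = 0.00227) in knockouts. The wild-type call of Itga4 ended when any 1 of CD4 wild-type libraries 1, 2 and 4 or of the 4 CD8 wild-type libraries was left out, with a change of 0.44 to 0.53 and an edgeR adjusted p of 0.0501 to 0.0972. The heterozygous call ended without CD8 library 1 (0.50, edgeR adjusted p = 0.0521) or without CD8 library 2 (0.48, edgeR adjusted p = 0.0577). Within replicates 3 and 4 alone neither the heterozygous change of 0.16 (edgeR adjusted p = 0.513) nor the knockout change of 0.34 (edgeR adjusted p = 0.185) passed. Exons of Itga4 overlap Cerkl on the opposite strand, which held 1.98 to 5.63 CPM, and the strand setting of the counting is not given in the sources used here.

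For LFA-1, the beta chain transcript was called slightly higher in CD8 cells, and the alpha chain transcript was not called. Itgb2 (ENSMUSG00000000290.13, chromosome 10, 77530252 to 77565708, plus strand) stood at 230.2, 229.6, 249 and 220.1 CPM in CD4 wild type and at 272, 269, 254 and 273 CPM in CD8 wild type. The change of 0.20 (SE 0.073, edgeR adjusted p = 0.0412) is 1.15-fold, with no overlap between the groups. It was 0.31 (SE 0.073, edgeR adjusted p = 0.00208) in heterozygotes, again without overlap, and 0.26 (SE 0.073, edgeR adjusted p = 0.0105) in knockouts, where the libraries overlapped. The wild-type call of Itgb2 ended without any 1 of libraries 1, 2 and 4 of either lineage, at 0.18 to 0.20 with an edgeR adjusted p of 0.0831 to 0.109. The knockout call ended without CD4 library 4, at 0.22 (edgeR adjusted p = 0.0517). Macrophages and other myeloid cells also carry beta 2. The 5 macrophage markers, none at 0 in all libraries, summed to 1.21 to 2.15 CPM in CD4 wild type. In CD8 wild type they summed to 3.17 to 3.79 CPM. Only 1 of these markers passed the filter on low counts, and edgeR called it higher in CD8 wild type (log2 change 1.04). The part of these markers in the result was not tested.

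Itgal (ENSMUSG00000030830.18, chromosome 7, 127296260 to 127335138, plus strand) stood lower in CD8 than in CD4 wild type, without a call. CD4 wild-type libraries held 441, 492, 520.5 and 439 CPM and CD8 wild-type libraries 397, 385, 414 and 368 CPM. The groups did not overlap, yet the change of -0.28 (SE 0.11) did not pass over all genes (edgeR adjusted p = 0.0715). With the replicate block it was -0.27 and passed (edgeR adjusted p = 0.011). In heterozygotes and knockouts the change was -0.05 and -0.08, with 95% intervals of -0.29 to 0.19 and -0.32 to 0.16. Without CD8 knockout library 2, which at 572 CPM was the highest of all 24, the knockout change was -0.25 and passed (edgeR adjusted p = 0.0488).

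Itgb3 (ENSMUSG00000020689.4, chromosome 11, 104608000 to 104670476, plus strand) was the 1 member called lower in CD8 cells, and it was so in each genotype. It stood at 44.0, 50.6, 48.0 and 40.9 CPM in CD4 wild type and at 15.6, 17.7, 14.4 and 17.7 CPM in CD8 wild type. CD4 heterozygotes held 35.4, 32.7, 36.7 and 35.3 CPM and CD8 heterozygotes 22.6, 18.7, 18.0 and 7.96 CPM. CD4 knockouts held 47.6, 39.5, 55.6 and 37.9 CPM and CD8 knockouts 20.1, 22.6, 10.8 and 13.3 CPM. No CD8 library reached the lowest CD4 library of its genotype. The change was -1.49 in wild type (SE 0.23, edgeR adjusted p = 3.05e-05), -1.06 in heterozygotes (SE 0.23, edgeR adjusted p = 0.000916) and -1.43 in knockouts (SE 0.23, edgeR adjusted p = 5.79e-05). CD8 cells thus held 0.356, 0.48 and 0.371 times the CD4 level. The call held in 17 of 17 alternatives in each genotype. Platelets also carry beta 3. The platelet markers Gp9 and Gp1bb were at 0 counts in all 24 libraries, and the 5 platelet markers summed to at most 0.141 CPM in any library.

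Itgav (ENSMUSG00000027087.11, chromosome 2, 83724397 to 83806916, plus strand), the alpha partner of beta 3, showed no such step. Its mean was 101 ± 18.9 CPM in CD4 and 102 ± 9.09 CPM in CD8 wild type (SD, n = 4 each), a change of 0.03 (95% interval -0.32 to 0.37). Itgb1 (ENSMUSG00000025809.15, chromosome 8, 128685654 to 128733200, plus strand), the most widely paired beta chain, stood at 357 ± 32.2 and 358 ± 46.2 CPM (SD, n = 4 each), a change of 0.00341 (95% interval -0.23 to 0.23). For Itga6 (ENSMUSG00000027111.16, chromosome 2, 71745616 to 71858416, plus strand), the laminin receptor chain, the means were 176 ± 18.6 and 149.7 ± 8.48 CPM (SD, n = 4 each). Its change of -0.24 (SE 0.097) did not pass (edgeR adjusted p = 0.0656), and passed without CD4 wild-type library 2, at -0.31 (edgeR adjusted p = 0.0251). None of these 3 genes was called in heterozygotes or knockouts, where their changes lay between -0.20 and 0.13. Exons of Itgav overlap Gm13684 on the opposite strand, which held 0 or 1 count in each library.

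**Figure D3:**
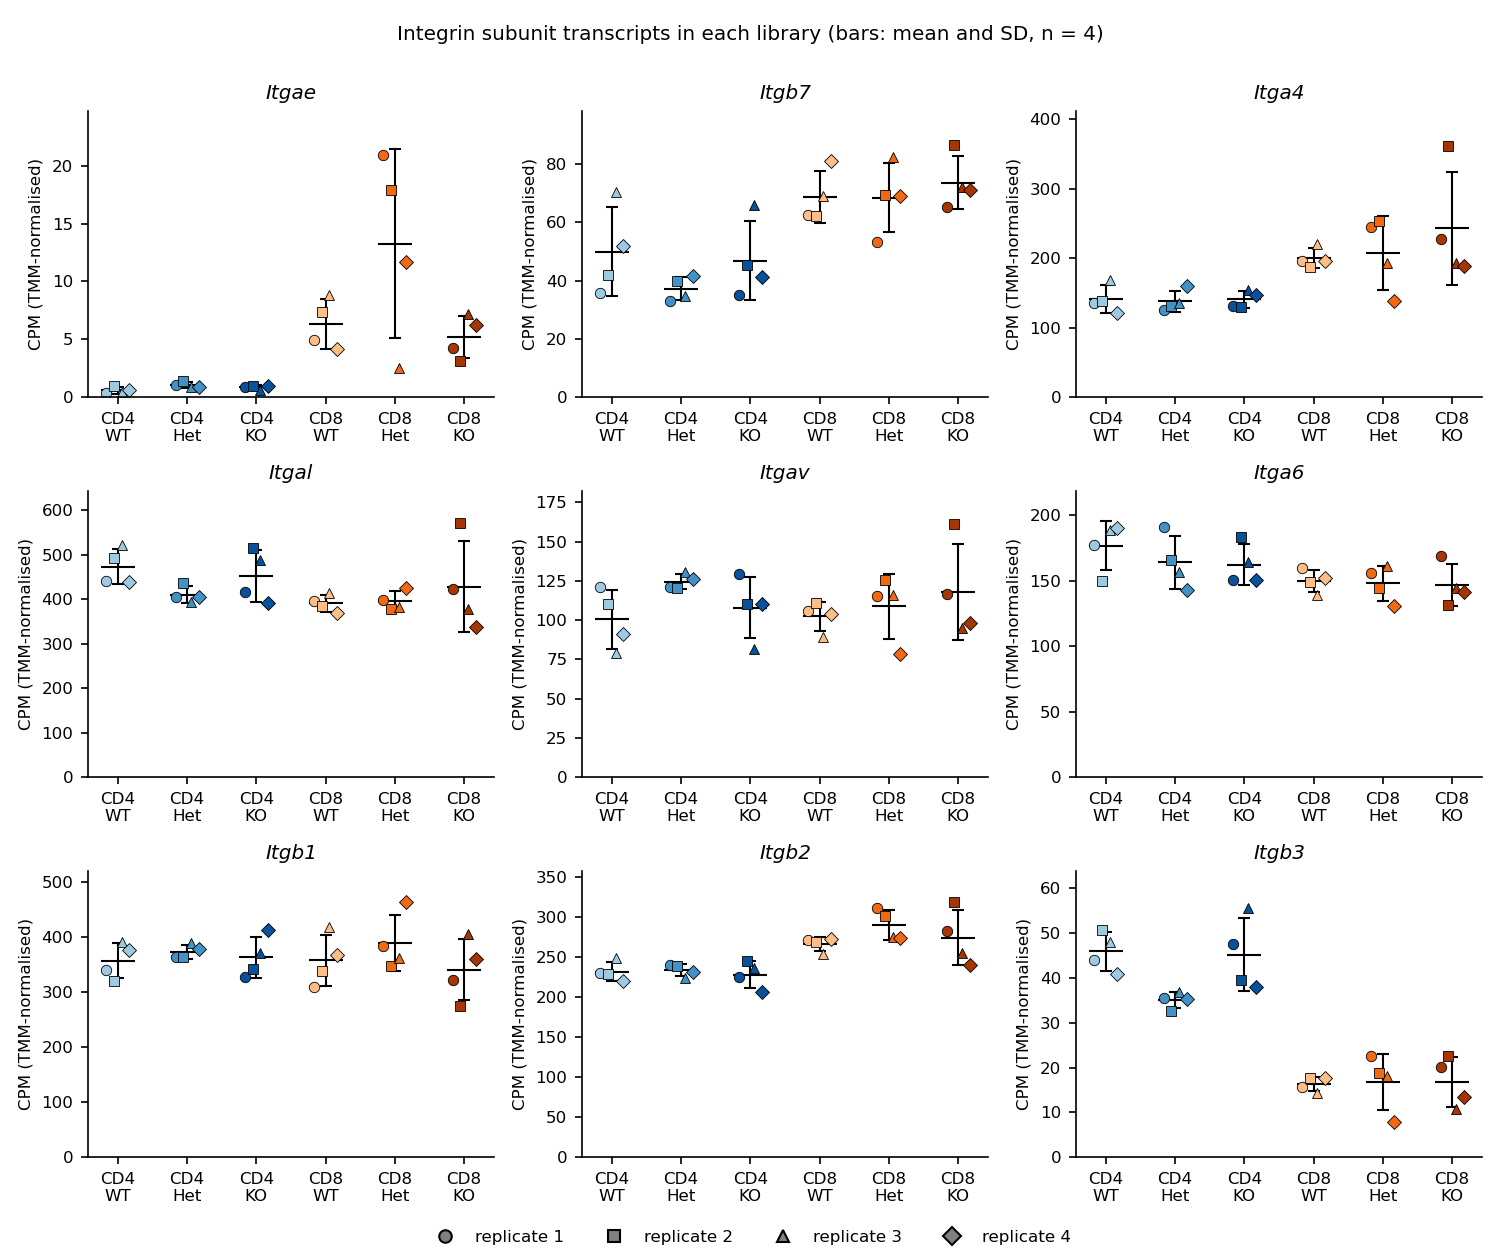
TMM-normalised CPM of the 9 integrin subunit genes, 1 panel per gene with its own axis from 0, with 1 symbol per library shaped by replicate number and bars for the mean and SD of the 4 libraries of a group. The CD8 groups lie above the CD4 groups for Itgae and below them for Itgb3, and CD8 heterozygous library 3 is the low triangle at 2.55 CPM in the Itgae panel.

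A ratio of 2 chains within a library does not depend on how libraries are scaled to each other, so 4 ratios that bear on pairing were compared between lineages, with lineage labels exchanged within each genotype. All 4 differed in an exact 2-sided permutation test over 343000 assignments. Itgae relative to Itga4, the rival alpha partners of beta 7, was higher in CD8 by 2.5 on the log2 scale (exact permutation p = 5.83e-06, adjusted p = 7.77e-06 over the 4 ratios). Mean log2 ratios of counts were -7.48 in CD4 and -4.97 in CD8. Per length, Itgae reached 0.0132 ± 0.0069 of Itga4 in CD4 wild type and 0.0958 ± 0.0293 in CD8 wild type (SD, n = 4 each), so alpha 4 transcripts stayed far in excess in both.

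Itgb7 relative to Itgb1, the rival beta partners of alpha 4, was higher in CD8 by 0.70 (exact permutation p = 2.33e-05, adjusted p = 2.33e-05). Per length, Itgb7 was 0.204 ± 0.0456 of Itgb1 in CD4 wild type and 0.285 ± 0.0352 in CD8 wild type (SD, n = 4 each). Itgal relative to Itgb2, the chains of LFA-1, was lower in CD8, with a difference of -0.40 (exact permutation p = 5.83e-06, adjusted p = 7.77e-06). Per length that ratio went from 0.946 ± 0.047 in CD4 wild type to 0.681 ± 0.0547 in CD8 wild type (SD, n = 4 each). Itgav relative to Itgb3 was higher in CD8 by 1.36 (exact permutation p = 5.83e-06, adjusted p = 7.77e-06), from 1.21 ± 0.248 to 3.45 ± 0.204 per length in wild type (SD, n = 4 each). The p of 5.83e-06 is the smallest that these assignments can give. The ratios share genes with the tests above and are not independent of them.

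**Figure D4:**
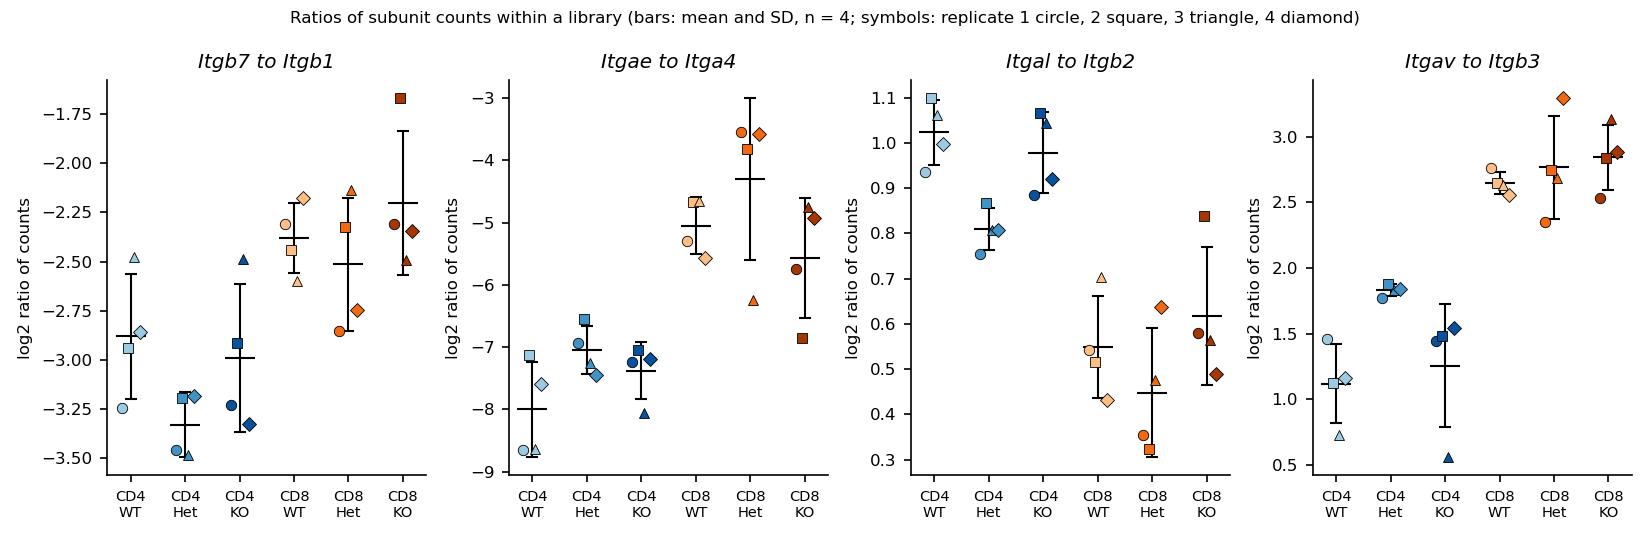
Log2 ratio of counts for 4 pairs of integrin chains, 1 panel per ratio with its own axis, with 1 symbol per library and bars for the mean and SD of the 4 libraries of a group. Within each genotype the CD8 libraries lie above the CD4 libraries for Itgae to Itga4 and Itgav to Itgb3 and below them for Itgal to Itgb2.

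The main question of the study, what loss of Pou2af1 changes, gave no call for any of the 9 genes. In CD4 cells edgeR called 0 of 9 in knockouts against wild type, where 0.0708% of 12719 genes were called, and 0 of 9 had an unadjusted p under 0.05. In CD8 cells it called 0 of 9 in knockouts against wild type, where 0.0634% of 12612 genes were called, again with 0 of 9 at an unadjusted p under 0.05. Over all genes, 310 in CD4 and 364 in CD8 had an unadjusted p under 0.05. DESeq2 also called 0 of 9 in each comparison. Background shares this low mean that nearly all genes went uncalled, so a count of 0 is not particular to integrins. What the data give is a bound on each change. For the abundant chains the 95% intervals of the CD4 knockout change were narrow, at -0.16 to 0.10 for Itgb2, -0.15 to 0.18 for Itgb1, -0.27 to 0.13 for Itgal and -0.24 to 0.21 for Itga4. In CD8 they were wider for these genes, at -0.15 to 0.23 for Itgb2, -0.34 to 0.19 for Itgb1, -0.14 to 0.41 for Itgal and -0.19 to 0.75 for Itga4. They were widest for Itgae, from -0.22 to 1.24 in CD4 and from -1.36 to 0.78 in CD8, where counts were low or spread.

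**Figure D5:**
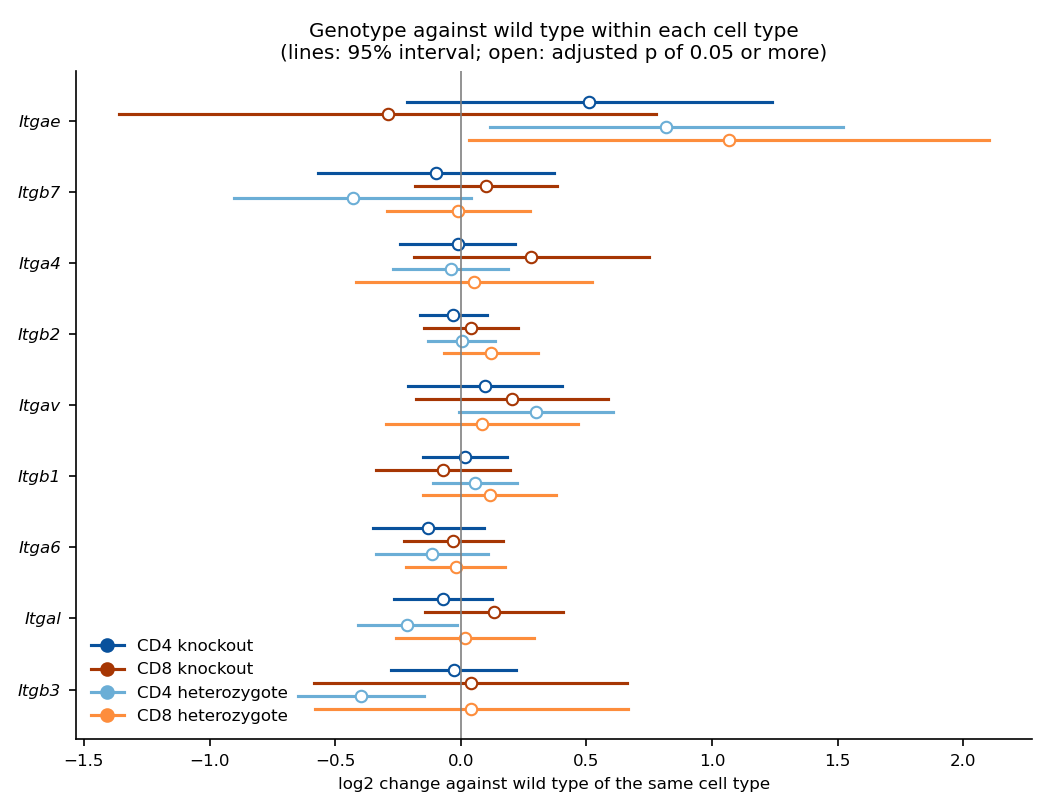
Log2 change of each integrin subunit gene in knockouts and heterozygotes against wild type of the same lineage, with 95% intervals from edgeR's quasi-likelihood fit as lines. Every point is open (adjusted p of 0.05 or more), and the intervals of Itgae are the widest.

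In CD8 knockouts the changes of the 9 genes ran from -0.29 for Itgae to 0.28 for Itga4. CD8 knockout library 2, at 362 CPM of Itga4, stood above the other 23 libraries, and without it the Itga4 change was 0.02. For Itgb3 the CD8 knockout change was 0.04 with a 95% interval of -0.58 to 0.66. In CD4 knockouts they ran from -0.13 for Itga6 to 0.51 for Itgae. The lineages have their own wild-type libraries, but same-numbered CD4 and CD8 libraries matched in sex in 12 of 12 pairs and may share an animal, so the lineages are not independent repeats.

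Heterozygotes against wild type also gave 0 calls of 9 by edgeR and by DESeq2, in CD4 (0.0865% of genes called by edgeR) and in CD8 (0.0634% called). At an unadjusted p under 0.05 stood 3 of 9 in CD4, beside 1103 of all 12719 genes tested. Itgb3 was the nearest to a call. All 4 CD4 heterozygous libraries, at 32.7 to 36.7 CPM, lay below all 4 wild types, at 40.9 to 50.6 CPM, and below all 4 knockouts, at 37.9 to 55.6 CPM. The change against wild type was -0.40 (SE 0.12, unadjusted p = 0.00467, edgeR adjusted p = 0.364). Itgal was 410.3 ± 18.9 against 473 ± 40.0 CPM (SD, n = 4 each) with no overlap (change -0.21, edgeR adjusted p = 0.548). Itgae was 1.06 ± 0.24 against 0.595 ± 0.29 CPM (SD, n = 4 each; change 0.82, edgeR adjusted p = 0.536), on 5 to 21 counts a library. Both female heterozygous libraries are replicates 1 and 2, whose wild-type counterparts are male.

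In CD8 heterozygotes 1 of 9 had an unadjusted p under 0.05, beside 220 of all 12612 genes tested. Itgae stood at 13.3 ± 8.13 CPM against 6.32 ± 2.15 CPM in wild type (SD, n = 4 each), a change of 1.07 (SE 0.48, edgeR adjusted p = 1.0). The libraries overlapped, since heterozygous library 3 lay below all 4 wild types and the other 3 heterozygous libraries lay above all 4. The NK cell markers stood higher too, at a sum of 3.77 to 7.41 CPM in CD8 heterozygotes beside 3.65 to 4.78 CPM in wild type. Klre1, the 1 of these 4 that passed the filter, had a log2 change of 0.60 in edgeR (unadjusted p under 0.05, not called), while Ncr1 was at 0 counts in all 8 libraries. Its part in the result was not tested. Itgb2 in CD8 heterozygotes, at 274 to 312 CPM, lay above the wild types at 254 to 273 CPM without overlap, but the change of 0.12 did not pass (edgeR adjusted p = 1.0).

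Knockouts against heterozygotes have Cre on both sides. Neither lineage gave a call among the 9, by edgeR or DESeq2, where 0.0157% of genes in CD4 and 0.0159% in CD8 were called by edgeR. Of all genes, 465 of 12719 in CD4 and 862 of 12612 in CD8 had an unadjusted p under 0.05. Among the 9, 1 stood there in each lineage. In CD4 that was Itgb3, with a change of 0.37 (SE 0.12, unadjusted p = 0.00756, edgeR adjusted p = 1.0), the heterozygous libraries being shared with the comparison above. In CD8 that was Itgae, at 5.18 ± 1.83 CPM in knockouts and 13.3 ± 8.13 CPM in heterozygotes (SD, n = 4 each; change -1.36, SE 0.48, edgeR adjusted p = 0.658). Klre1 had a log2 change of -0.55 here (unadjusted p under 0.05, not called), and its part in the result was not tested. Within replicates 1 and 2 alone the Itgae change was -2.39 and passed (edgeR adjusted p = 0.0117), and within replicates 3 and 4 alone it was -0.08 (edgeR adjusted p = 0.998). Both CD8 heterozygotes in the first set are female, beside 1 male and 1 female knockout.

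Whether the genotype effect differed between lineages was tested as a difference of differences over all 24 libraries. edgeR and DESeq2 called 0 of 9 for the knockout effect and 0 of 9 for the heterozygote effect. Of 13288 genes, edgeR called 0.00753% in each. An unadjusted p under 0.05 was held by 0 of 9 in each, beside 228 and 538 of all genes. The difference between lineages in the knockout effect was -0.81 for Itgae (95% interval -2.31 to 0.69) and lay between -0.10 and 0.28 for the other 8. In the heterozygote effect it was 0.43 for Itgb3 (95% interval -0.23 to 1.09) and 0.42 for Itgb7 (95% interval -0.13 to 0.97). The smaller CD8 to CD4 step of Itgae in knockouts, 2.58 beside 3.39 in wild type, is thus not shown to differ.

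Other subunit genes were read beside the members. Of 13 further alpha subunit genes 8 passed the filter, and in CD8 against CD4 wild type edgeR called 1 higher and 1 lower and DESeq2 called 2 and 2. The share of all genes called there by edgeR, 31.2%, is above that of these 8, and the counts of the lists that follow are likewise to be read against it. Itga9, a receptor chain for tenascin and VCAM-1, was lower, with 0.295 ± 0.12 CPM in CD8 beside 4.01 ± 2.13 CPM in CD4 (SD, n = 4 each; change -3.70, SE 0.43, edgeR adjusted p = 1.05e-06). Itgax, the CD11c chain of myeloid and some activated CD8 cells, held 0 to 1 count in CD4 and 1 to 27 counts in CD8 wild-type libraries, which overlap at 1 count (edgeR adjusted p = 0.00611). Of 4 further beta subunit genes Itgb8 alone passed the filter. It encodes the partner of alpha V that activates latent TGF-beta, and was lower in CD8 wild type, at 0.375 ± 0.082 CPM against 2.49 ± 0.84 CPM in CD4 (SD, n = 4 each; change -2.72, SE 0.46, edgeR adjusted p = 9.77e-05). Itgb3 and Itgb8, whose chains share alpha V as partner, were thus called lower in CD8 wild type, while Itgav itself was not called. Itgb1, whose chain also pairs with alpha V, was not called (change 0.00341, edgeR adjusted p = 0.986). Median log2 changes were -0.13 over the 8 alpha genes and -0.02 over all genes.

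Of 14 ligand genes 7 passed the filter, and 1 was lower in CD8 wild type. That was Thbs1, which encodes thrombospondin 1, at 0.244 ± 0.12 CPM against 2.12 ± 2.22 CPM in CD4 (SD, n = 4 each; change -3.07, SE 0.79, edgeR adjusted p = 0.0054). Its CD4 libraries ranged from 2 to 76 counts. The median over the 7 was 0.23. In heterozygotes 1 ligand gene was higher and 2 lower, where 35% of all genes were called, and in knockouts 1 was higher and 1 lower, where 24.1% were. The wild-type count, 1 of 7, stands beside 31.2% of all genes.

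Activation of integrins runs from RAP1 and its exchange factors through talin and kindlin to the beta chain tail. Of 34 genes of this machinery 31 were tested, and in CD8 against CD4 wild type 6 were higher and 3 lower, with a median of 0.01. That is near the share of all genes called (31.2%, of which 14.7% higher and 16.6% lower), so the count is not a result about this machinery. Rasgrp2, the exchange factor CalDAG-GEFI that loads RAP1, rose most, from 4.04 ± 1.38 to 22.6 ± 2.26 CPM (SD, n = 4 each; change 2.47, SE 0.19, edgeR adjusted p = 2.84e-09). Its relative Rasgrp1 fell from 232 ± 58.5 to 168 ± 18.7 CPM (change -0.46, edgeR adjusted p = 0.00779). Zyx, which encodes the focal adhesion protein zyxin, was higher by 1.01 (SE 0.12, edgeR adjusted p = 2.04e-06), and Ilk, the integrin-linked kinase, by 0.53 (SE 0.15, edgeR adjusted p = 0.0111). Lower in CD8 were Ptk2, the focal adhesion kinase FAK, at 6.01 ± 1.09 against 18.3 ± 3.21 CPM (change -1.60, edgeR adjusted p = 6.45e-08), and the actin crosslinker Actn1, at 138 ± 14.9 against 322 ± 65.3 CPM (change -1.22, edgeR adjusted p = 2.02e-06; SD, n = 4 each). Heterozygotes had 9 higher and 3 lower, beside 35% of all genes called, and knockouts 7 higher and 2 lower, beside 24.1%.

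TGF-beta induces Itgae, and RUNX3 is a known regulator of CD103 in CD8 cells, so 16 genes of these pathways were read beside it. All 16 were tested, and in CD8 against CD4 wild type 3 were higher and 5 lower, with a median of -0.09, where 31.2% of all genes were called (14.7% higher, 16.6% lower). Smad3, which carries the TGF-beta signal to the nucleus, rose from 18.9 ± 7.17 to 32.2 ± 1.61 CPM (change 0.76, SE 0.17, edgeR adjusted p = 0.00197). Runx3 rose from 61.6 ± 5.19 to 92.2 ± 9.23 CPM (change 0.58, SE 0.11, edgeR adjusted p = 0.000372) and its partner Cbfb by 0.19 (edgeR adjusted p = 0.0101). Runx3 also stands among the CD8 lineage markers used to check the labels. Runx1 fell from 49.1 ± 2.48 to 12.3 ± 0.47 CPM (change -2.0, SE 0.087, edgeR adjusted p = 8.89e-14; SD, n = 4 each). The repressors of SMAD signalling Ski and Skil fell by 0.73 (edgeR adjusted p = 5.68e-07) and by 0.51 (edgeR adjusted p = 0.00333). Also lower were the receptor gene Tgfbr1 (change -0.31, edgeR adjusted p = 0.0101) and Smurf2 (change -0.29, edgeR adjusted p = 0.00287). Tgfb1, Tgfbr2, Tgfbr3, Smad2, Smad4, Smad7, Tgif1 and Lrrc32 were not called in wild type. Heterozygotes had 3 higher and 6 lower, beside 35% of all genes called, and knockouts 3 higher and 5 lower, beside 24.1%. In all 6 genotype comparisons and both differences between lineages edgeR and DESeq2 called 0 genes of each of these 5 lists, and at most 4 genes of a list had an unadjusted p under 0.05.

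Across the 24 libraries, the 2 genes whose log2 CPM ran most like each member were as follows. For Itgae they were Cdan1 (r = 0.948) and Fbxo30 (r = 0.941), for Itgb7 Abcg1 (r = 0.953) and Anapc5 (r = 0.936), and for Itga4 Prkcb (r = 0.955) and P2ry10b (r = 0.931). For Itgb2 they were Hsd17b11 (r = 0.941) and Gramd4 (r = 0.931), and for Itgb3 Pde6d and Ifngr2 (r = 0.948 each). For members with no lineage call they were Hnrnpab (r = 0.934) and Cand1 (r = 0.895) for Itgb1, Rpl32 (r = 0.894) and Clpb (r = 0.891) for Itgal, Adora2a (r = 0.882) and Zc3hav1 (r = 0.88) for Itgav, and Clasp1 (r = 0.779) and Synpo (r = 0.754) for Itga6. These are Pearson correlations over 24 libraries that share 6 groups, and serve as a description.

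Members also varied together within groups. After each group's mean was taken off, Itgal and Itgb2 moved together over the 24 libraries (r = 0.783), as did Itga4 and Itgb3 (r = 0.752). Itgav and Itgb1 moved apart (r = -0.791), as did Itgb1 and Itgb3 (r = -0.674). CD8 knockout library 2 held the highest Itgal (572 CPM), Itgb2 (320 CPM), Itga4 (362 CPM) and Itgav (161 CPM) of all 24 libraries. It also held the lowest Itgb1 (275 CPM). CD8 heterozygous library 4 held the highest Itgb1 (463 CPM) and the lowest Itgav (78.3 CPM) and Itgb3 (7.96 CPM). How far these correlations rest on those libraries was not tested, and no r of other gene pairs stands beside them. Itgb1 was higher in replicates 3 and 4 than in replicates 1 and 2 in 6 of 6 groups, by 0.08 to 0.36 on the log2 scale, and Itgb7 in 5 of 6. Itgae, Itgav, Itga6 and Itgb2 went the other way, each higher there in 1 of 6 groups. Some of these steps were close to nil, such as -0.005 for Itgae and -0.04 for Itgb2 in CD8 wild type. Same-numbered libraries may share an animal, so the groups are not independent repeats, and the share over all genes is not given. What sets these replicate numbers apart is not given in the labels.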

How the data were processed

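Whole-number counts per gene, as deposited by the authors for 55401 genes in 24 libraries, were used. The submitters' processing notes name Trimmomatic 0.35, STAR 2.7.1a and DESeq2 1.26.0 with build GRCm38. Neither annotation release nor strand setting is stated there. The deposited normalized table was not used. Summary lines of the count table (31.6% to 35.0% of its total) stayed out of library sizes. Identifiers matched GENCODE M21 (GRCm38) for 54349 genes, which gave exon lengths and coordinates.

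Genes were filtered with filterByExpr (count minimum 10), scaled with TMM (factors 0.976 to 1.02) and tested with edgeR 4.0.16 (quasi-likelihood F test, Benjamini-Hochberg over all genes, threshold 0.05) in R 4.3.3 with limma 3.58.1. Genotypes were compared within the 12 libraries of a lineage (12719 genes in CD4, 12612 in CD8), and lineages within all 24 (13288 genes). Log2 CPM for correlations used a prior count of 2. The scripts were tested on simulated data. Floors of 3 counts cover counting error only. The labels do not say that replicates are separate animals, so each p-value measures a spread that may be partly technical. By Xist and Ddx3y each group holds libraries of both sexes, so no group comes from a single animal.

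The 9 genes and the 5 further lists were chosen with earlier results of these data known. All 9 were tested in each comparison and named in each lineage comparison, while the text on the other comparisons names only some of them. From each list, up to 3 called genes of largest change each way in CD8 against CD4 wild type and every called gene of a genotype comparison were named, and for each member the 2 genes most correlated with it. Cell type markers, the rest of the TGF-beta and RUNX list, Cerkl and Gm13684 are named outside this rule. Alternatives were DESeq2 1.42.0, its size factors, no filter, and covariates for sex and for replicates 3 and 4. Further ones were a replicate block, subsets of libraries, and each library left out. The block was the replicate number within a lineage, and genotype with replicate number where both lineages were compared.

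Whether replicate numbers pair the libraries was checked by correlating the deviations of same-numbered libraries from their group means. Every pair lay above 0.1 within CD4 (0.132 to 0.58) and between lineages (0.147 to 0.451), and all 12 CD4 and CD8 pairs of 1 genotype and number matched in sex. Within CD8 they ran from 0.0565 to 0.395 for knockouts with wild type and from 0.0678 to 0.403 for knockouts with heterozygotes. For heterozygotes with wild type they ran from -0.226 to 0.223. Differently numbered libraries were not compared, so these values do not settle whether the numbers pair the libraries.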

Additional observations from a re-analysis of the deposited data

Results flagged for a closer look

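In 78 sets of 4 values (9 genes and 4 ratios in 6 groups) 2 held a library far from the other 3 by Dixon's criterion at 95%, where chance flags about 1 in 20. In CD8 heterozygotes the log2 ratio of Itgae to Itga4 was -6.24 in library 3 and -3.82 to -3.55 in the others. That library held 34 counts of Itgae, beside 167 to 282 in the others. In CD4 knockouts the log2 ratio of Itgav to Itgb3 was 0.557 in library 3 and 1.44 to 1.54 in the others. That library had the lowest Itgav (81.8 CPM) and the highest Itgb3 (55.6 CPM) of its group.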

How the results depend on the processing

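Each lineage comparison was repeated under 17 alternatives, each genotype comparison under 18, each difference between lineages under 24 and each ratio under 28. In CD8 against CD4, Itgae and Itgb3 were called in 17 of 17 in each genotype. Itga4 was called in 9, 14 and 16 of 17, Itgb2 in 9, 16 and 14, and Itgb7 in 4, 17 and 15 (wild type, heterozygotes, knockouts). Members called in wild type (4 as reported) came to 7 with replicates 3 and 4 as a covariate and to between 2 and 5 with 1 library left out. It was 2 (Itgae and Itgb3) without CD4 wild-type library 1 or 4 or without CD8 wild-type library 1, 2 or 4. Heterozygotes had 3 members called within replicates 3 and 4 only, against 5, and between 4 and 5 with 1 library left out. Knockouts had 2 within replicates 3 and 4 only, against 5, and between 4 and 6 with 1 library left out. Over all genes, calls in the alternatives ran from 2822 to 5275 in wild type, against 4149 as reported. They ran from 3869 to 5660 in heterozygotes (4646 as reported) and from 1890 to 4157 in knockouts (3198 as reported). The counts of members are to be read beside these. Without a filter on low counts, Itgb2 in wild type did not pass (edgeR adjusted p = 0.151), and with only the 8 libraries compared it did not pass in knockouts (edgeR adjusted p = 0.111). The cause was not tested, though subsets hold fewer samples. Knockouts against heterozygotes in CD8 gave 1 member (Itgae) within replicates 1 and 2 only, and 0 otherwise. All other genotype comparisons and both differences between lineages gave 0 members in every alternative. With the replicate block, 6 members were called in wild type, 5 in heterozygotes, 5 in knockouts and 0 in each genotype comparison, and it changed no call beyond Itgb7 and Itgal in wild type. All 4 ratios passed in 28 of 28, with an exact permutation adjusted p of at most 0.037. Over all genes, CD4 heterozygotes against wild type gave 11 calls as reported, 80 with DESeq2, 45 with the replicate block, 79 with replicates 3 and 4 as a covariate, 251 within replicates 1 and 2 and 56 within replicates 3 and 4. CD8 knockouts against heterozygotes gave 2 as reported, 19 with DESeq2 and 242 within replicates 1 and 2. CD4 knockouts against heterozygotes gave 13 within replicates 3 and 4, against 2. Depth limits Itgae in CD4 most, at 5 to 21 counts a library.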
